A study of Mus musculus with 9 samples.

Results

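The amino acid transporter families Slc1a, Slc3a, Slc6a, Slc7a, Slc36a, Slc38a and Slc43a were examined in mouse duodenal organoids that overexpressed HIF2 or HIF1. Members were all genes whose symbol consists of a family name followed by digits only, which gave 60 of the 46517 genes in the files: 7 Slc1a, 2 Slc3a, 18 Slc6a, 15 Slc7a, 4 Slc36a, 11 Slc38a and 3 Slc43a genes. Names with a further letter, such as Slc6a20a and the antisense gene Slc6a19os, did not match and were not members. All 60 are protein-coding genes of the GENCODE M21 annotation of GRCm38, from which the positions below were taken.

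The organoids were grown from duodenal crypts of wild type C57BL/6J mice, embedded in Matrigel and fed L-WRN conditioned medium. The study describes these conditions as enriching for stem cells, but the stem cell markers read here were low, as given below. Cultures were transduced with Ad-GFP, an adenovirus that carries green fluorescent protein, as control, or with Ad-hHIF2 or Ad-hHIF1, which carry a human HIF whose hydroxylated prolines were changed so that it escapes degradation. There were 3 samples per group, with the replicate numbers 1, 3 and 4, and values below are in that order. All 9 samples were transduced with 50 particles per cell and harvested about 72 hours later, in culture at 5% oxygen, and the medium after transduction held Y27632, SB431542 and nicotinamide. The study counts the 3 samples of a group as biological replicates, so the p-values measure the spread between these cultures. A virus-driven transgene in cultured crypt cells is a model of transient overexpression and not of hypoxia.

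Amino acids cross membranes through transporters that differ in substrate and driving ion. Exchangers of the Slc7 family work as a light chain joined to a heavy chain, Slc3a1 or Slc3a2, which carries the pair to the cell surface. Sodium-driven carriers of the Slc1, Slc6 and Slc38 families load the cell with glutamine, glutamate, glycine, taurine or creatine, and carriers of the Slc36 and Slc38 families also move amino acids out of lysosomes, where mTORC1 senses them. In the small intestine, absorptive cells take up dietary amino acids through a further set at the brush border, led by Slc6a19 and the pair of Slc3a1 and Slc7a9. Several transporter genes are known targets of the HIFs or of ATF4, the transcription factor of amino acid shortage.

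Totals ran from 21722618 to 51119041 expected counts per sample, and the 60 members together held 0.091% to 0.150% of them. Epas1, the mouse HIF2 gene, to which reads of the human transgene can be assigned, was at 758, 604 and 655 CPM (counts relative to library size with TMM factors) in Ad-hHIF2 organoids and at 1.47 to 3.06 in the other 6 samples. Hif1a was at 308, 319 and 299 CPM in Ad-hHIF1 organoids and at 198 to 251 in the other 6 samples. Of the 8 epithelial markers, Krt8, Krt18 and Cdh1 had group means of at least 218 CPM, whereas Epcam, Cldn7, Vil1 and Cdx2 lay between 1.68 and 8.03 CPM. In Ad-hHIF2 against Ad-GFP organoids Epcam was lower (log2 fold change -0.81, edgeR adjusted p = 0.0472) and Cdh1 higher (0.53, edgeR adjusted p = 0.00313). Markers of intestinal lineages were low: Cdx1 was at 0 in all 9 samples and the summed level of 5 stem cell markers ran from 0.366 to 2 CPM. A pair of satellite-like genes, Gm10800 with Gm26870, made up 15.96% of the counts of Ad-hHIF1 replicate 3 and 0.43% to 4.28% elsewhere. The summed level of 4 neuron and glia markers was 38.4 CPM in that sample and 1.43 to 13.3 CPM in the other 8 samples. Goblet cell markers, 4 genes, summed to 1.54 to 2.13 CPM in Ad-hHIF2, 4.82 to 7.59 in Ad-GFP and 3.55 to 4.12 in Ad-hHIF1 organoids. Nearly all of this was Muc2, with means of 1.71, 5.86 and 3.69 CPM in the same order. Muc2 alone of the 4 was tested, and Tff3 was at 0 in Ad-GFP and Ad-hHIF2 organoids. The part of goblet cells in the results below was not tested. Ad-hHIF2 replicate 1 also stood apart, with a TMM factor of 1.31 against 0.907 to 1.03 in the others.

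Of the 60 members, 31 passed the filter on low counts over all 9 samples and are called expressed here. Only 10 had at least 1 TPM (the deposited length-scaled values) in all 9 samples. Genes under 300 bases held 68.5% to 75.1% of the TPM, so 1 TPM is a high bar here. Slc6a8, with 422 to 1604 counts, was under 1 TPM in some samples. The 29 members that did not pass the filter never exceeded 15 counts in a sample. Of these, Slc1a6, Slc6a7, Slc6a13 and Slc36a3 were at 0 in all 9 samples. The monoamine carriers Slc6a2, Slc6a3 and Slc6a4 were among the 29, as was Slc7a9, the brush border light chain, with 9 counts in all samples together. Slc1a1, the main glutamate carrier of the gut, had 30 counts in all.

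Levels of different genes were compared as CPM per kilobase of the deposited gene length. In Ad-GFP organoids, Slc3a2, the heavy chain CD98, held 26.2% ± 1.01 (SD, n = 3) of the summed level of the 60 members. Slc38a2, a sodium-driven carrier of small neutral amino acids, held 13.4% ± 0.693 (SD, n = 3). Then came Slc7a1, the main carrier of arginine and lysine, with 7.28% ± 0.788 and the leucine exchanger Slc7a5 with 6.52% ± 0.627 (SD, n = 3 each), whose intervals of 1 SD overlapped. The next ranks, Slc1a4, Slc38a6, Slc38a10 and Slc1a5, lay between 5.43% and 5% and could not be ordered, since the SD of Slc38a6 was 0.875 and that of Slc1a5 was 0.813. The top 5 members held 58.8% and the top 10 held 82.8%. In Ad-hHIF2 organoids Slc7a5 held 12.3% ± 0.406 (SD, n = 3) of the summed level and lay close to Slc38a2, with 12.7% ± 0.344 (SD, n = 3).

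**Figure D1:**
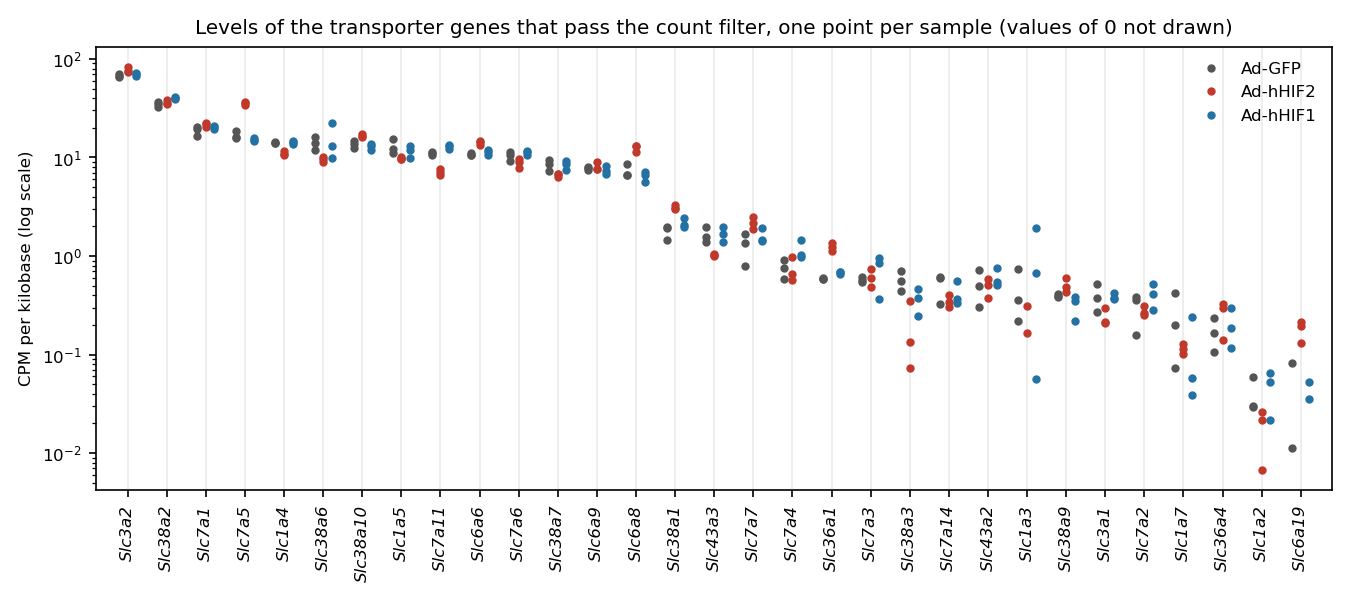
Level of the 31 expressed transporter genes in CPM per kilobase on a log axis, ordered by the mean of the Ad-GFP organoids, with a point for each of the 9 samples (values of 0 are not drawn). Slc3a2 leads in all groups, 14 genes lie above 5 CPM per kilobase in every sample, and the red points of Ad-hHIF2 leave the others in Slc7a5, Slc7a11, Slc6a8, Slc38a1 and Slc36a1.

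The first comparison asked which transporters differ in HIF2-overexpressing organoids from the GFP control. Slc7a5, Slc36a1, Slc38a1, Slc6a8, Slc6a6, Slc38a10 and Slc6a19 were higher in Ad-hHIF2 organoids, and Slc7a11, Slc1a4, Slc38a6, Slc43a3, Slc1a5 and Slc38a7 were lower. Tested by quasi-likelihood in edgeR, these 13 of 30 members (43.3%) had an adjusted p below 0.05, beside 29.5% of all 14987 genes tested. At an unadjusted p below 0.05 there were 17, beside 41.2% of all genes. For higher genes the background was 15.9% and for lower genes 13.6%. At 2-fold or more 3 members remained, Slc7a5, Slc36a1 and Slc6a19, all higher, beside 6.73% of all genes. Slc6a19 passed the filter on low counts only through the Ad-hHIF2 samples, where it is high. Without it the 13, 17 and 3 members above are 12, 16 and 2. Slc38a3 passed that filter only through the Ad-GFP samples, where it is high (29, 45 and 20 counts, against 27, 12 and 4 in Ad-hHIF2). It is still among the 16. The median log2 fold change of the members tested was 0.02, against -0.01 over all genes tested. The Ad-hHIF2 samples lay above all Ad-GFP samples for 11 tested members and below them for 7, beside 23.4% and 22.4% of all genes. The 11 include Slc6a19 and the 7 include Slc38a3. The smallest two-sided p that exact permutation of 3 against 3 allows is 0.10.

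The split between higher and lower members depended on the scaling. With library totals only and no TMM factors, an alternative added after the data were seen, the median log2 fold change of all genes moved to 0.24, the calls over all genes went from 2381 higher and 2035 lower to 3491 and 828, and the member calls from 7 and 6 to 8 and 0. On that scale the 6 lower members had log2 fold changes from -0.43 for Slc43a3 to -0.08 for Slc38a7, each below the shift of all genes. "Higher" and "lower" below therefore mean relative to the bulk of genes. In whole organoids, more cells of a type and more RNA per cell cannot be told apart.

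**Figure D2:**
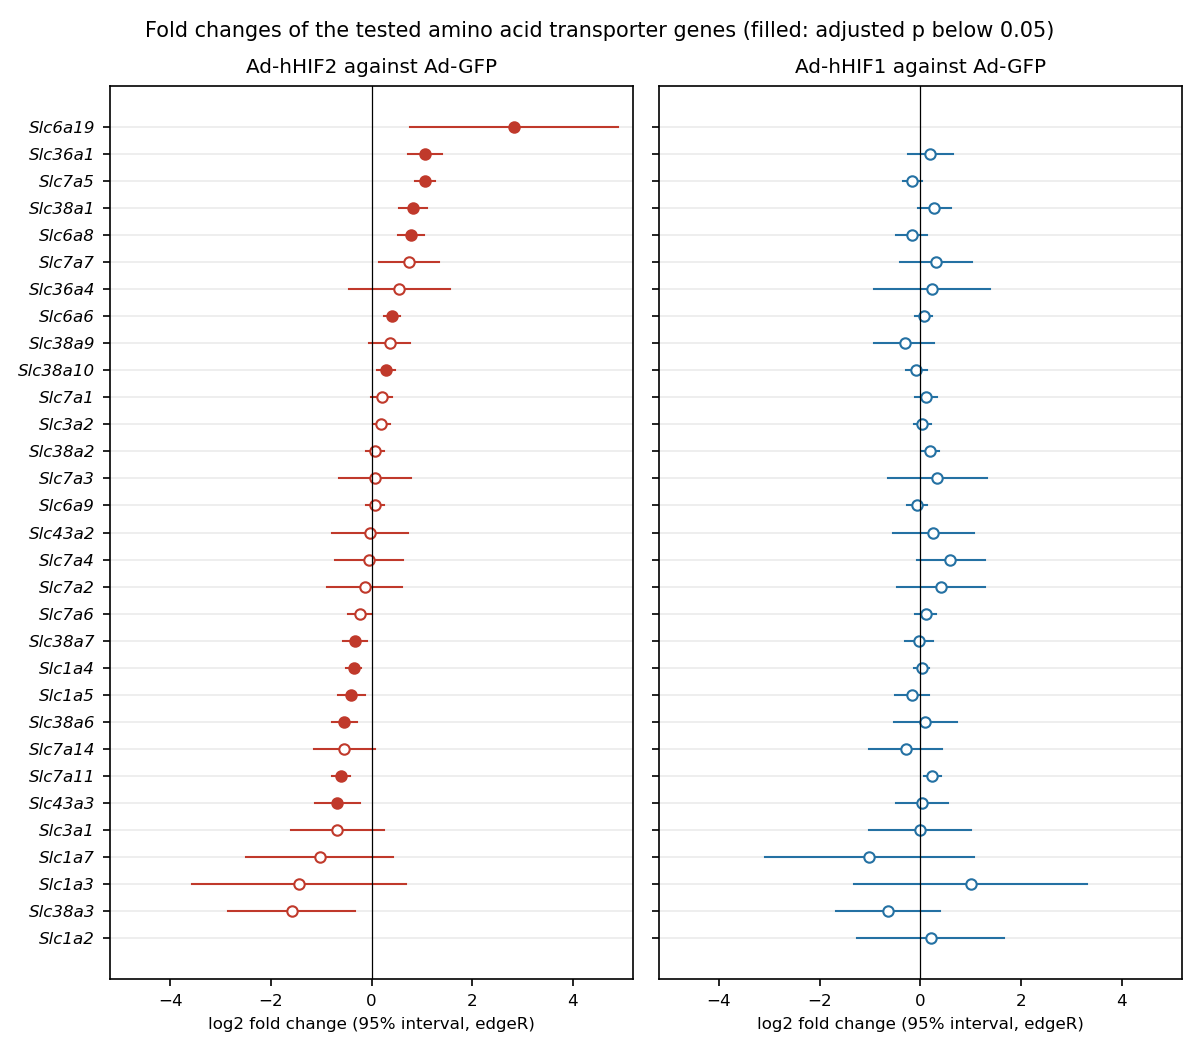
Log2 fold changes with 95% intervals from edgeR for the transporter genes tested in Ad-hHIF2 (left) and Ad-hHIF1 organoids (right) against the same Ad-GFP samples, filled at an adjusted p below 0.05. On the left 13 points are filled, from 2.83 for Slc6a19 to -0.68 for Slc43a3, and on the right none is filled.

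Slc7a5 encodes LAT1, the light chain that exchanges leucine and other large neutral amino acids, and lies on the minus strand of chromosome 8 from 121881150 to 121907694. It was at 56.5, 54.5 and 64.9 CPM in Ad-GFP, 126, 118 and 125 CPM in Ad-hHIF2 and 54.2, 51.1 and 52.4 CPM in Ad-hHIF1 organoids. All Ad-hHIF2 samples lay above the other 6. Its log2 fold change over Ad-GFP was 1.07 (SE 0.0874, edgeR adjusted p = 5.65e-05), the smallest adjusted p of the members. With a sample left out the log2 fold change was 1.02 to 1.16, and the call was never lost. The predicted gene Gm20388 overlaps Slc7a5 on the opposite strand, but the expected counts of Slc7a5 were whole numbers in all 9 samples.

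Of Slc3a2 and its other light chains, Slc7a11 alone passed the main test. The level of Slc3a2 (chromosome 19, 8706882 to 8723369, minus strand) was 170, 173 and 181 CPM in Ad-GFP, 213, 189 and 195 CPM in Ad-hHIF2 and 172, 181 and 187 CPM in Ad-hHIF1 organoids. The Ad-hHIF2 samples were the highest, but the log2 fold change of 0.19 (SE 0.0771) did not pass (edgeR adjusted p = 0.0962), though it did with DESeq2 (0.20, adjusted p = 0.0412). Part of the reads of Slc3a2 were shared with other genes, since its expected counts were not whole in any sample.

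Slc7a11 encodes xCT, the light chain that imports cystine in exchange for glutamate and so feeds glutathione synthesis, and spans chromosome 3 from 49892526 to 50443614. It was at 87.2, 85.0 and 81.1 CPM in Ad-GFP, 55.3, 59.4 and 51.5 CPM in Ad-hHIF2 and 104, 101 and 94.6 CPM in Ad-hHIF1 organoids. The 3 groups did not overlap, with Ad-hHIF2 lowest and Ad-hHIF1 highest. Slc7a11 fell by 0.60 on the log2 scale in Ad-hHIF2 organoids (SE 0.0777, edgeR adjusted p = 0.000712) and kept the call with each sample left out. The call was lost with total counts only (-0.35, edgeR adjusted p = 0.158) and with limma on log2(TPM + 1) (-0.12, adjusted p = 0.779). Several short genes and pseudogenes overlap it, and its expected counts were not whole in any sample.

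The remaining light chains were Slc7a6 and Slc7a7, which exchange arginine or lysine for neutral amino acids. Slc7a6 was at 42.3, 39.6 and 34.4 CPM in Ad-GFP, 33.7, 35.8 and 29.1 CPM in Ad-hHIF2 and 42.4, 39.7 and 43.4 CPM in Ad-hHIF1 organoids. Ad-hHIF2 overlapped Ad-GFP (log2 fold change -0.23, edgeR adjusted p = 0.119), and with total counts only the sign turned to 0.02. Slc7a7, which overlaps Oxa1l on the opposite strand, was at 2.81, 3.50 and 1.65 CPM in Ad-GFP, 5.23, 3.87 and 4.46 CPM in Ad-hHIF2 and 3.02, 4.03 and 2.93 CPM in Ad-hHIF1 organoids. All Ad-hHIF2 values of Slc7a7 were above those of Ad-GFP, yet its log2 fold change of 0.75 (SE 0.264) missed the threshold (edgeR adjusted p = 0.0634). It passed in 6 alternatives, among them edgeR without a count filter (0.78, adjusted p = 0.00582), DESeq2 (0.77, adjusted p = 0.0442) and total counts only (1.02, adjusted p = 0.00176). Slc7a8, Slc7a10 and Slc7a13 stayed at or under 14 counts in each sample.

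Per kilobase, the light chains of Slc3a2 (Slc7a5, Slc7a6, Slc7a7, Slc7a8, Slc7a10 and Slc7a11) summed to 40.4, 39.1 and 39.3 CPM in Ad-GFP, 55.1, 53.3 and 52.8 in Ad-hHIF2 and 42.0, 40.6 and 40.4 in Ad-hHIF1 organoids. The sums of Ad-hHIF2 did not overlap those of the other groups. The ratio of Slc7a5 to Slc3a2 was 0.246, 0.234 and 0.266 in Ad-GFP, 0.439, 0.463 and 0.477 in Ad-hHIF2 and 0.234, 0.210 and 0.208 in Ad-hHIF1 organoids. The ratio of Slc7a11 to Slc3a2 went from 0.150 to 0.171 in Ad-GFP down to 0.0869 to 0.105 in Ad-hHIF2 organoids. Slc7a5 was thus the most abundant light chain in all 9 samples, and in Ad-hHIF1 organoids it lay nearest to Slc7a11, which was at 0.170 to 0.202 of Slc3a2.

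**Figure D3:**
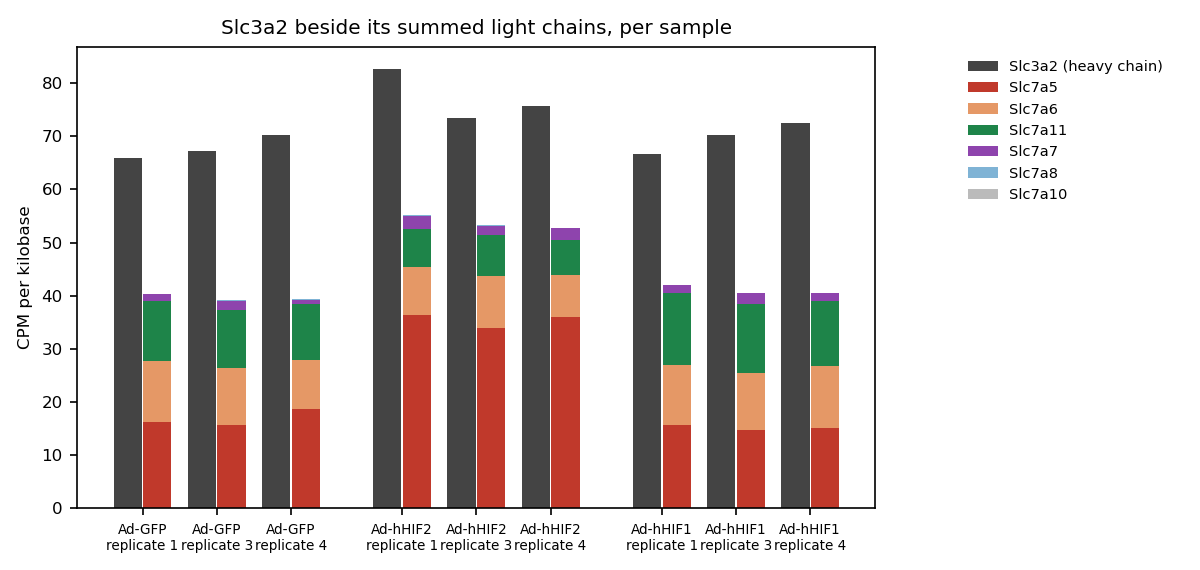
The heavy chain Slc3a2 (dark bars) and its stacked light chains in each of the 9 samples, in CPM per kilobase. The stacks reach 52.8 to 55.1 in Ad-hHIF2 and 39.1 to 42.0 in the other samples, and within them Slc7a5 is larger and Slc7a11 smaller in Ad-hHIF2 organoids.

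Slc3a1, the heavy chain of the brush border, is known to pair with Slc7a9 and was near the limit of detection. It was at 0.866, 0.628 and 1.19 CPM in Ad-GFP, 0.485, 0.691 and 0.498 CPM in Ad-hHIF2 and 0.871, 0.849 and 0.962 CPM in Ad-hHIF1 organoids. The groups Ad-hHIF2 and Ad-GFP overlapped, and the log2 fold change of -0.68 had a 95% interval from -1.60 to 0.25 (edgeR adjusted p = 0.246).

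Among the cationic carriers, Slc7a1 was at 133, 139 and 113 CPM in Ad-GFP, 154, 148 and 140 CPM in Ad-hHIF2 and 142, 133 and 140 CPM in Ad-hHIF1 organoids. With HIF2 it had a log2 fold change of 0.20 that was not called (edgeR adjusted p = 0.137), and neither were those of Slc7a2 and Slc7a3.

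The proton-coupled carrier Slc36a1, known as PAT1, exports amino acids from lysosomes and takes up glycine and proline at the apical membrane. It lies on chromosome 11 from 55204350 to 55236330. It was at 3.01, 2.97 and 2.95 CPM in Ad-GFP, 6.79, 5.67 and 6.21 CPM in Ad-hHIF2 and 3.49, 3.28 and 3.48 CPM in Ad-hHIF1 organoids. All Ad-hHIF2 samples lay above the others, with a log2 fold change of 1.07 relative to Ad-GFP (SE 0.147, edgeR adjusted p = 0.00103), and 1.02 to 1.13 when a sample was left out. Its neighbour Slc36a2 (chromosome 11, 55158470 to 55185077), a related carrier of glycine and proline, was under the filter and is named here after its values were seen. It had 0 counts in the 3 Ad-GFP samples, 15, 13 and 15 counts in Ad-hHIF2 and 0, 0 and 1 count in Ad-hHIF1 organoids. Against a floor of 3 counts per library in Ad-GFP, Slc36a2 was at least 3.44-fold higher in Ad-hHIF2 organoids, a description with no test since the gene was chosen for this pattern. The third gene of this stretch, Slc36a3, was at 0 throughout, and Slc36a4 on chromosome 9 was not called (log2 fold change 0.55, edgeR adjusted p = 0.381).

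Promoters were searched because members moved in both directions. The table of RefSeq promoters on GRCm38.p6, from 250 bases before to 50 bases after the start site, held an entry for 42 of the 60 members, with several promoters for some genes, and a gene was counted if any of its promoters matched. Slc7a5, Slc6a8, Slc38a1 and Slc6a6 were among those without an entry. The letters ACGTG, the core that HIFs bind in hypoxia response elements, and TGATGNAA, the core of the element bound by ATF4 with C/EBP proteins, were searched on both strands. ACGTG was present for 17 of the 42 members (40.5%), against 21.8% of all 27025 genes in the table. TGATGNAA was present for 3 of the 42 (7.14%), against 4.51% of all genes. ACGTG read on both strands at once is CACGTG, the E-box, which other factors bind, so these matches overlap a second motif. The sequences of 2 higher and 2 lower members with a match are shown 5′ to 3′ on the strand of the gene, with the matches in capitals, and a match on the opposite strand is printed as its reverse complement. These are the higher members with ACGTG and the lower members with TGATGNAA. Among those not shown are Slc38a7, which was lower and held ACGTG, and Slc7a7, which was not called and held both motifs. Slc36a1 is at chr11:55204090-55204389 on the plus strand and Slc38a10 at chr11:120151302-120151601 on the minus strand. Slc7a11 is at chr3:50443564-50443863 and Slc1a4 at chr11:20332664-20332963, both on the minus strand.
Slc36a1, ACGTG: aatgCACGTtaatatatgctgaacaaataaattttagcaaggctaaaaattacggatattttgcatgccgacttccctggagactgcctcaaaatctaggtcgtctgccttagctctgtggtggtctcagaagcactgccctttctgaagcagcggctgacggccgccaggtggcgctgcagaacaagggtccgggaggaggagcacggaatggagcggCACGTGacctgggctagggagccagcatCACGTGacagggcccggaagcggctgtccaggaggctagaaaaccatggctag
Slc38a10, ACGTG: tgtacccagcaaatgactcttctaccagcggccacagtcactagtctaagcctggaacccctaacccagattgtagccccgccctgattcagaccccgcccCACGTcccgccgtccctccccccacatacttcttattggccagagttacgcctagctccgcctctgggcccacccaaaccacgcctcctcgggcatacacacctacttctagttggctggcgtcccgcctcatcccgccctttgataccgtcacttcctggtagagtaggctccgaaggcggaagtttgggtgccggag
Slc7a11, TGATGNAA: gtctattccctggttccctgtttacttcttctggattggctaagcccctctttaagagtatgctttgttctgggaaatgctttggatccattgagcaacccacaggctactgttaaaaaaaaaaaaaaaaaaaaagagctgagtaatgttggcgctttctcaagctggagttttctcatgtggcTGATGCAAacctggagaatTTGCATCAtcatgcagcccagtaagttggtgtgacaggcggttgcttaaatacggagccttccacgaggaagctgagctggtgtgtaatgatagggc
Slc1a4, TGATGNAA: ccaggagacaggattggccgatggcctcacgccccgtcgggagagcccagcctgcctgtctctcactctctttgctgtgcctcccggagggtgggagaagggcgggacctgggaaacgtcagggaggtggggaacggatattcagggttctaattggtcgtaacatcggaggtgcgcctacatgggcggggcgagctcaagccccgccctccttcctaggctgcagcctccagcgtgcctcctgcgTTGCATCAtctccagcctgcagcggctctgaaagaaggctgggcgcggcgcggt

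The Slc36a1 promoter held ACGTG at 3 places, 2 of them as CACGTG, with positions counted from the start site as negative before it: -246 to -242, -31 to -26 and -3 to 3. Slc38a10 held it once on the opposite strand, at -149 to -145. Slc7a11 held TGATGNAA at -66 to -59 and again, on the opposite strand, at -47 to -40. Slc1a4 held it once, across the start site. These are matches of letters and were not tested for binding. Among the 21 tested members with an entry, 42.9% held ACGTG and 14.3% held TGATGNAA. Of the higher members in Ad-hHIF2 organoids with an entry, 2 of 3 held ACGTG and 0 of 3 TGATGNAA, and of the lower members 1 of 4 (Slc38a7) and 2 of 4 did, numbers too small to compare.

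Of the 7 sodium-coupled neutral carriers of the Slc38 family tested, 2 were called higher, 2 lower and 3 not, beside 15.9% higher and 13.6% lower of all genes. Slc38a1, which imports glutamine, was at 13.8, 10.6 and 14.2 CPM in Ad-GFP, 22.1, 21.6 and 24.1 CPM in Ad-hHIF2 and 15, 17.5 and 14.4 CPM in Ad-hHIF1 organoids. All Ad-hHIF2 samples were above the other 6 (log2 fold change over Ad-GFP 0.82, SE 0.122, edgeR adjusted p = 0.00152). The call of Slc38a1 was lost with limma on log2(TPM + 1) (0.34, adjusted p = 0.0567). Slc38a1 and Slc38a2 are neighbours on chromosome 15, at 96571418 to 96642913 and 96687392 to 96699730.

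Slc38a2, the most abundant of the family and a known target of ATF4, differed little. It was at 169, 163 and 151 CPM in Ad-GFP, 177, 167 and 160 CPM in Ad-hHIF2 and 181, 190 and 185 CPM in Ad-hHIF1 organoids. Ad-hHIF2 overlapped Ad-GFP, and the log2 fold change was 0.07 with a 95% interval from -0.11 to 0.25 (edgeR adjusted p = 0.542).

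Slc38a10 was at 54.4, 46.2 and 51.6 CPM in Ad-GFP, 59.9, 63.8 and 60.8 CPM in Ad-hHIF2 and 48.5, 44.5 and 51.3 CPM in Ad-hHIF1 organoids. It was 0.28 higher on the log2 scale in Ad-hHIF2 than in Ad-GFP organoids (SE 0.0816, edgeR adjusted p = 0.0311). The groups did not overlap, but leaving out Ad-GFP replicate 3, Ad-hHIF2 replicate 3 or Ad-hHIF2 replicate 4 ended the call, with adjusted p up to 0.112.

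Slc38a6 was at 45.4, 53.5 and 62.1 CPM in Ad-GFP, 38.9, 37.3 and 34.2 CPM in Ad-hHIF2 and 50.5, 85.0 and 37.7 CPM in Ad-hHIF1 organoids. Ad-hHIF2 was lowest among the control and HIF2 samples (log2 fold change -0.54, SE 0.113, edgeR adjusted p = 0.0083), whereas Ad-hHIF1 replicate 3 was higher than all other samples. The call was lost in the fit of all 9 samples (edgeR adjusted p = 0.131), with total counts only (-0.27, edgeR adjusted p = 0.268) and with limma on log2(TPM + 1) (-0.04, adjusted p = 0.926). The expected counts of Slc38a6 were not whole in any sample. Slc38a7, a lysosomal exporter of glutamine, was at 20.7, 18.7 and 16 CPM in Ad-GFP, 14, 15 and 14.9 CPM in Ad-hHIF2 and 18.6, 20.0 and 16.2 CPM in Ad-hHIF1 organoids. Its decrease of -0.33 (edgeR adjusted p = 0.0433) was lost in 5 of the 6 fits with a sample left out, all but that without Ad-GFP replicate 4. Slc38a9, the lysosomal arginine sensor of mTORC1, was not called (log2 fold change 0.36, edgeR adjusted p = 0.176), nor was Slc38a3 (log2 fold change -1.59, edgeR adjusted p = 0.062).

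The small neutral exchangers were both lower in Ad-hHIF2 organoids. Slc1a4, which carries serine, alanine and cysteine, was at 56.5, 54.5 and 54.9 CPM in Ad-GFP, 45.3, 41.8 and 42.5 CPM in Ad-hHIF2 and 54.0, 57.0 and 58.3 CPM in Ad-hHIF1 organoids. All Ad-hHIF2 samples were below the other 6 (log2 fold change over Ad-GFP -0.35, SE 0.0647, edgeR adjusted p = 0.00436). The call of Slc1a4 was lost with total counts only (-0.09, edgeR adjusted p = 0.762). Slc1a5, the glutamine exchanger ASCT2, was at 26.3, 21.0 and 19.0 CPM in Ad-GFP, 17.3, 16.6 and 16.5 CPM in Ad-hHIF2 and 22.3, 16.9 and 20.2 CPM in Ad-hHIF1 organoids. It was below Ad-GFP in all Ad-hHIF2 samples (log2 fold change -0.40, SE 0.117, edgeR adjusted p = 0.0344), but the call was lost in 5 of the 6 fits with a sample left out, all but that without Ad-GFP replicate 4. On log2(TPM + 1) with limma both signs turned, to 0.08 for Slc1a4 and 0.06 for Slc1a5. The acidic carriers Slc1a3 and Slc1a7 were tested and not called. Slc1a3, a carrier of glia, was at 2.19 CPM in Ad-hHIF1 replicate 3, the sample with high neuron and glia markers, and at 0 to 0.845 CPM in the others, and the part of such cells was not tested.

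The tested Slc6 carriers of creatine and taurine were both higher in Ad-hHIF2 organoids. Slc6a8, the creatine carrier on the X chromosome from 73673150 to 73682502, was at 18.6, 18.3 and 23.9 CPM in Ad-GFP, 36.6, 31.5 and 36.4 CPM in Ad-hHIF2 and 19.8, 18.5 and 15.7 CPM in Ad-hHIF1 organoids. All Ad-hHIF2 samples exceeded the other 6 (log2 fold change over Ad-GFP 0.79, SE 0.117, edgeR adjusted p = 0.00153). Slc6a6, the taurine carrier, was at 65.6, 65.1 and 68.0 CPM in Ad-GFP, 90.6, 81.8 and 88.6 CPM in Ad-hHIF2 and 69.7, 73.3 and 65.0 CPM in Ad-hHIF1 organoids. It also lay above the other 6 samples (log2 fold change over Ad-GFP 0.40, SE 0.0709, edgeR adjusted p = 0.00377). The call of Slc6a6 was lost with limma on log2(TPM + 1) (0.56, adjusted p = 0.17). Slc6a9, the glycine carrier GlyT1, was not called (log2 fold change 0.06, edgeR adjusted p = 0.603).

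Slc6a19, the brush border carrier of neutral amino acids, had 0, 1 and 4 counts in Ad-GFP, 14, 24 and 16 counts in Ad-hHIF2 and 3, 0 and 5 counts in Ad-hHIF1 organoids. As a description, the summed counts gave 7.97 times the Ad-GFP level in Ad-hHIF2 organoids, with a 95% exact interval from 3.21 to 25.5 that covers counting error only. The call (edgeR adjusted p = 0.0457) was lost in 5 of the 6 fits with a sample left out, all but that without Ad-GFP replicate 4, and in the fit of all 9 samples (adjusted p = 0.0847). The antisense gene Slc6a19os overlaps it. Beside Slc6a19 and Slc36a2, the summed level of 10 absorptive enterocyte markers was 9.97 to 11.1 CPM in Ad-hHIF2, 4.55 to 7.60 in Ad-GFP and 5.43 to 6.27 in Ad-hHIF1 organoids. Of these, 5 were tested against Ad-GFP, with 2 higher and 3 not called, beside 29.5% of all genes called. Rbp2 was higher (log2 fold change 1.53, edgeR adjusted p = 0.0101). Fabp2 was at 0.148 CPM in Ad-hHIF2 and 0.502 CPM in Ad-GFP organoids and was not called (-1.67, edgeR adjusted p = 0.0837). Mttp (0.01) and Apoa1 (0.98) were not called either. Apoa4 was at 2.49 CPM in Ad-hHIF2 and 0.0122 CPM in Ad-GFP organoids, and it too passed the filter only through the group where it is high, while Fabp1, a fatty acid binding protein gene, was at 0 in Ad-hHIF2 organoids. The part of such cells in these results was not tested.

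Of the Slc43 family, Slc43a3, which is known to carry purine nucleobases and not amino acids, was at 3.47, 5.02 and 3.95 CPM in Ad-GFP, 2.61, 2.51 and 2.62 CPM in Ad-hHIF2 and 4.22, 3.50 and 5.01 CPM in Ad-hHIF1 organoids. All Ad-hHIF2 samples were the lowest (log2 fold change over Ad-GFP -0.68, SE 0.198, edgeR adjusted p = 0.0315), but the call was lost in 4 of the 6 fits with a sample left out. These were the fits without Ad-GFP replicate 3 or without any of the Ad-hHIF2 replicates. The leucine carrier Slc43a2 had a log2 fold change of -0.03 (edgeR adjusted p = 0.961), and Slc43a1 was under the filter.

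**Figure D4:**
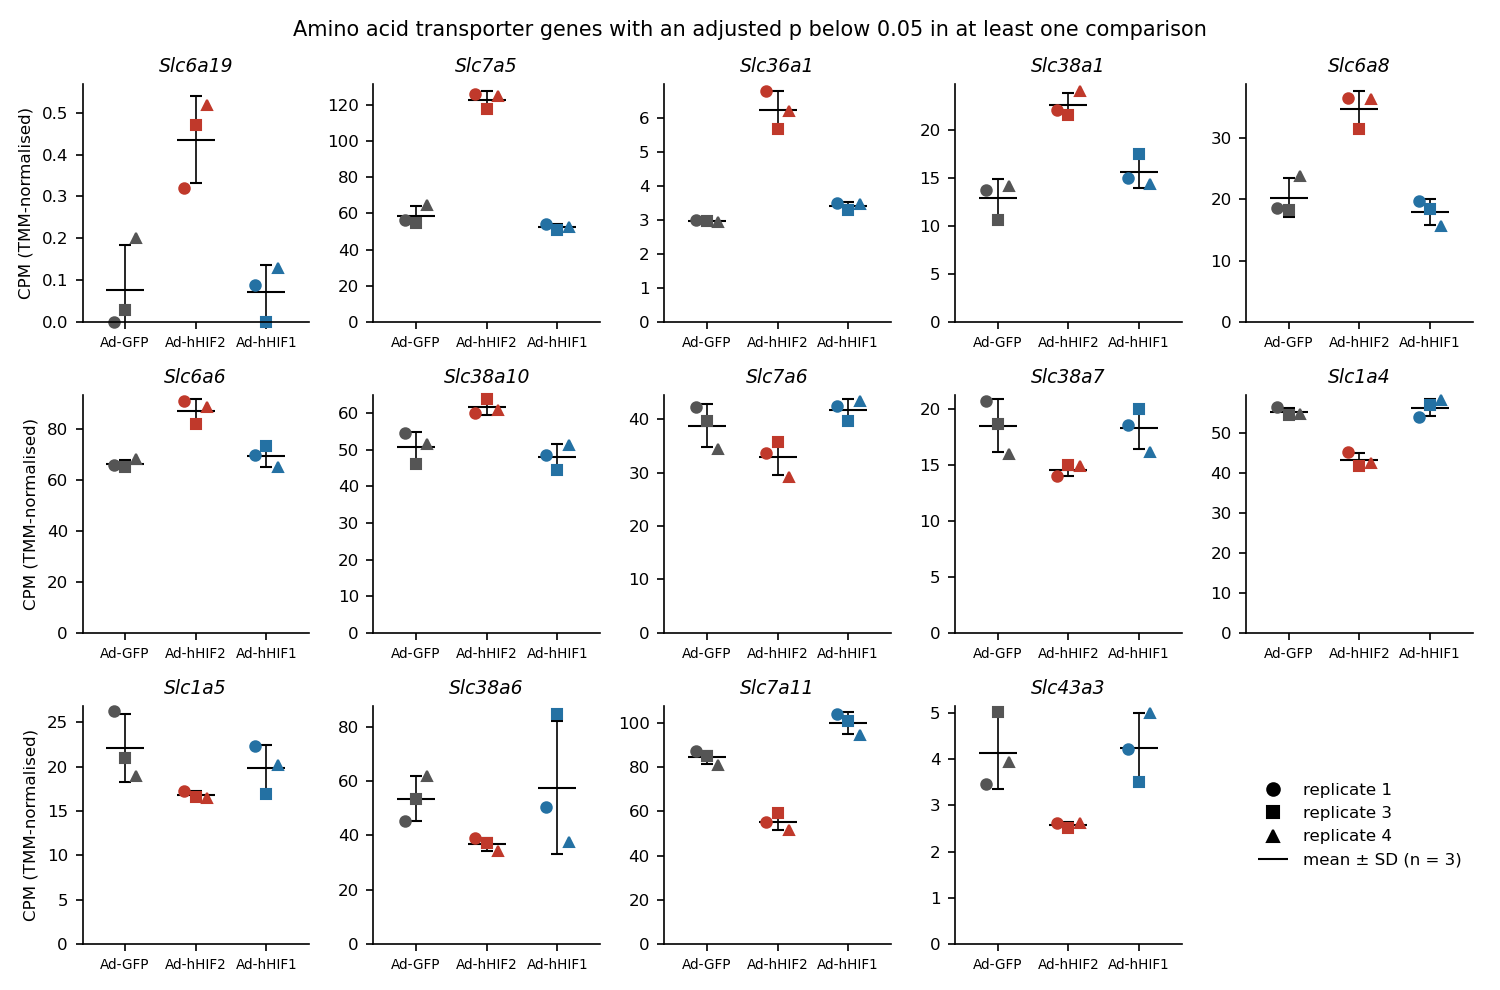
CPM of the 14 transporter genes called in at least 1 comparison, with a symbol for each replicate number, and mean ± SD (n = 3) per group on axes that start at 0. The red Ad-hHIF2 points are apart from both other groups in 11 of the 14 panels, all but Slc7a6, Slc1a5 and Slc38a6, and in Slc38a6 the Ad-hHIF1 points run from 37.7 to 85.0 CPM. The panels were chosen by calls in these same samples, all in comparisons of Ad-hHIF2. The choice thus partly sets this separation, which is a description only.

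The second comparison set HIF1-overexpressing organoids against the same Ad-GFP samples, and no transporter passed the test. Hif1a was at 299 to 319 CPM in Ad-hHIF1 organoids and at 198 to 251 CPM in the other samples. Epas1 was at 604 to 758 CPM in Ad-hHIF2 organoids and at 1.47 to 3.06 CPM in the others. Whether both HIFs were overexpressed to a like degree was not tested, which limits this comparison and that between the HIFs. Of the 30 members tested against Ad-GFP, 0 were called by edgeR, beside 0% of all 15233 genes tested. The smallest adjusted p of a member was 0.493, for Slc7a11. DESeq2 called 0 of the 10 members for which it gave an adjusted p, beside 4.29% of all genes with one, and limma on log2(TPM + 1) called 0 of 30, beside 0% of all genes. At an unadjusted p below 0.05 there were 2 members, both higher, beside 8.59% of all genes: Slc7a11 (log2 fold change 0.24, SE 0.0726) and Slc38a2 (0.20, SE 0.0768). The Ad-hHIF1 samples lay above all Ad-GFP samples for 5 members and below them for 2, beside 8.38% and 9.01% of all genes. The median log2 fold change of the members tested was 0.09, against 0 over all genes tested. The intervals limit how far the main members could have moved: Slc7a5 had a log2 fold change of -0.16 (95% interval -0.35 to 0.04), Slc36a1 0.20 (-0.24 to 0.65), Slc38a1 0.28 (-0.04 to 0.61) and Slc6a8 -0.17 (-0.48 to 0.14). Without Ad-hHIF1 replicate 3 the count stayed at 0, and the log2 fold change of Slc38a6 went from 0.10 to -0.28.

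A direct test compared both HIFs in a fit of all 9 samples. Of 31 members, 10 were called by edgeR (32.3%), beside 25.6% of all 15592 genes. Higher with HIF2 than with HIF1 were Slc7a5, Slc6a8, Slc36a1, Slc38a1, Slc38a10 and Slc6a6, beside 13.7% of all genes, and lower were Slc7a11, Slc1a4, Slc43a3 and Slc7a6, beside 11.9%. Of these 10, 9 were also called against Ad-GFP, but both comparisons use the same Ad-hHIF2 samples. Slc7a5 had a log2 fold change of 1.23 (SE 0.0795, edgeR adjusted p = 3.23e-06) and alone reached 2-fold, beside 6.07% of all genes. Slc7a11 was lower by -0.85 (SE 0.0755, edgeR adjusted p = 2.66e-05), a larger difference than against Ad-GFP. Slc6a8 was higher by 0.95 and Slc36a1 by 0.86 (edgeR adjusted p = 0.000375 and 0.00192). Slc38a1, Slc38a10 and Slc6a6 were higher by 0.53, 0.35 and 0.33, with a largest adjusted p of 0.00977 (edgeR), and Slc38a10 lost the call without Ad-hHIF2 replicate 3 (edgeR adjusted p = 0.0523). Slc1a4 was lower by -0.38 (edgeR adjusted p = 0.00158). Slc7a6 (-0.35, edgeR adjusted p = 0.0252) and Slc43a3 (-0.72, edgeR adjusted p = 0.0259) lost the call in 4 and 5 of the 6 fits with a HIF sample left out. For Slc6a19 the difference was not called (log2 fold change 2.42, edgeR adjusted p = 0.103). Without Ad-hHIF1 replicate 3, which stood apart, 11 members were called, 10 of them the same, beside 20.7% of all genes. With total counts only, 7 members were higher and 1 lower, and over all genes the calls went from 2136 higher and 1863 lower to 2094 and 805. The groups did not overlap for 9 higher and 8 lower members, beside 22.7% and 19.1% of all genes, and 14 had an unadjusted p below 0.05, beside 37.3%. Without Slc6a19, which passed the filter only through the Ad-hHIF2 samples, the 9 and the 14 are 8 and 13. The median log2 fold change of the members was -0.24, against -0.01 over all genes.

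Genes around the transporters were read from 4 lists, and the counts stand beside the 29.5% of all genes called in Ad-hHIF2 against Ad-GFP organoids. Among other transporters and partners, 2 of 5 tested rose and 1 fell with HIF2 relative to Ad-GFP. Ctns, the lysosomal cystine exporter, was at 13.9 ± 0.887 against 6.88 ± 0.771 CPM (SD, n = 3 each), and its log2 fold change was 1.03 (edgeR adjusted p = 0.000343). Slc17a5, a lysosomal carrier of sialic acid, was higher by 0.34 and Slc16a10, a carrier of aromatic amino acids, lower by -0.61 (edgeR adjusted p = 0.045 and 0.0277).

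Of the genes that sense amino acids through mTORC1 and GCN2, 3 of 15 were higher and 1 lower, with a median log2 fold change of 0.19. Sesn2, a leucine sensor that restrains mTORC1, was at 58.3 ± 5.34 against 24 ± 0.860 CPM (SD, n = 3 each), and its log2 fold change was 1.28 (edgeR adjusted p = 1.51e-05). Mtor, its kinase, was higher by 0.48 (edgeR adjusted p = 0.00194) and the GTPase gene Rraga by 0.29 (edgeR adjusted p = 0.0276). Atf4 was at 301 ± 8.88 against 360 ± 12.2 CPM (SD, n = 3 each), lower by -0.26 (edgeR adjusted p = 0.0323).

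Of 16 genes of amino acid synthesis and other ATF4 targets, 2 were higher, Sesn2 and Vldlr, and 6 were lower, Ddit3, Ddit4, Cebpb, Trib3, Phgdh and Chac1, with a median of -0.05. Ddit3, the stress factor CHOP, was at 56.7 ± 4.10 against 154 ± 2.96 CPM (SD, n = 3 each), lower by -1.44 (edgeR adjusted p = 5.2e-06). Ddit4, an inhibitor of mTORC1 and a known HIF target, was lower by -1.30 (edgeR adjusted p = 3.65e-05). The asparagine synthetase gene Asns, a classical ATF4 target, was at 109 ± 4.26 against 107 ± 2.89 CPM (SD, n = 3 each) and was not called (edgeR adjusted p = 0.779).

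Among 11 genes of glutamine, glutamate and cysteine use, 0 were higher and 4 were lower, with a median of -0.18. Gclc, the catalytic subunit of the first enzyme of glutathione synthesis, was at 8.77 ± 0.712 against 25.3 ± 1.70 CPM (SD, n = 3 each), lower by -1.52 (edgeR adjusted p = 1.29e-05). Its partner Gclm was lower by -0.41, Got1 by -0.57 and the glutamine synthetase gene Glul by -0.35 (edgeR adjusted p = 0.0127, 0.000461 and 0.00883). In Ad-hHIF1 against Ad-GFP organoids, 0 genes of the 4 lists were called by edgeR, and 2 genes of the sensing list, 4 of the ATF4 list, 2 of the glutamine list and 0 of the other transporters had an unadjusted p below 0.05, beside 8.59% of all genes.

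**Figure D5:**
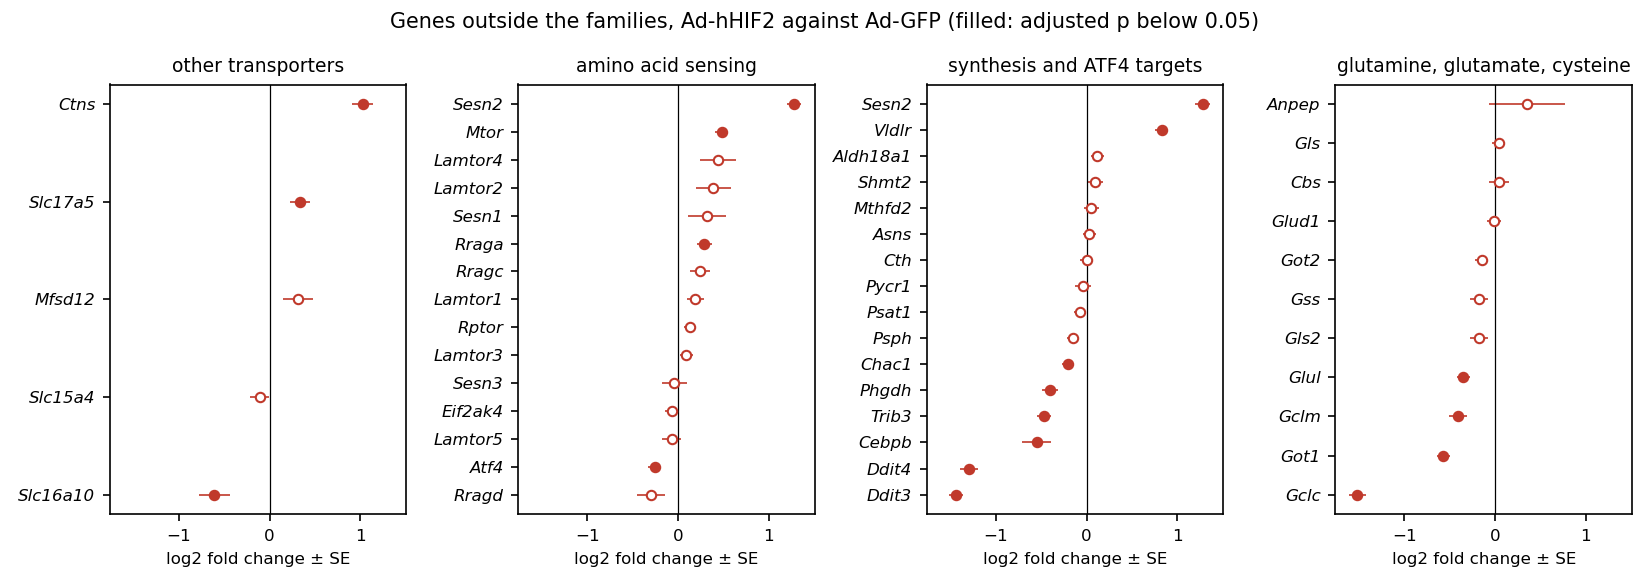
Log2 fold change ± SE in Ad-hHIF2 against Ad-GFP organoids for the tested genes of 4 lists outside the transporter families, filled at an adjusted p below 0.05 (edgeR). Sesn2 and Ctns lie farthest to the right among sensors and transporters, and Ddit3, Ddit4 and Gclc farthest to the left.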

How the data were processed

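RNA sequencing of 9 organoid cultures was used, 3 per group as the labels give them. The authors removed low-quality reads and estimated expected counts with RSEM, and the deposited expected counts are not normalized. The deposited TPM are length-scaled by RSEM and were used for rank and in alternatives. Aligner, genome build, annotation and strandedness are not given in the sources used here. Of the expected counts, 85.7% were whole (within 0.005). Counts were rounded, filtered with filterByExpr, normalized by TMM and tested with edgeR 4.0.16 (limma 3.58.1, DESeq2 1.42.0, R 4.3.3, Python 3.11.15), with Benjamini-Hochberg adjustment over all genes tested and a call at an adjusted p below 0.05. Comparisons with Ad-GFP used the 6 samples concerned, and that between the HIFs used all 9. CPM used TMM factors over all 9 samples and unrounded counts.

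The genes given in every sample were those called in any comparison (at most 24), the 10 with the highest TPM in Ad-GFP, and the heavy and light chains tested. Slc36a2 and the uncalled members named in passing are outside this rule. The members and lists were chosen with earlier results of these data known. The fits were tested on simulated data. Alternatives were median-ratio size factors, total counts only, no filter, at least 10 counts in every sample, DESeq2, limma on log2(TPM + 1) with and without TMM scaling, other sets of samples, the replicate block, each sample left out, and a 2-fold minimum. The chi-square of the closest replicates, divided by its degrees of freedom, was 23.7, so no library was counted as a duplicate.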

Additional observations from a re-analysis of the deposited data

How the results depend on the processing

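The count of called members in Ad-hHIF2 against Ad-GFP organoids, 13, went to 3 at 2-fold or more, to 4 with limma on log2(TPM + 1) and to 8 with total counts only (6.73%, 6.74% and 28.8% of all genes, against 29.5%), and ran from 8 to 15 with each sample left out (19.8% to 28.9% of all genes), the lowest without Ad-hHIF2 replicate 4. It was 10 without Ad-hHIF2 replicate 1. With the TPM scaled by TMM factors, added after the data were seen, it was 11 (19.8% of all genes). In Ad-hHIF2 against Ad-hHIF1 organoids, the count of 10 went to 1 at 2-fold or more and to 1 with limma on log2(TPM + 1) (6.07% and 2.35% of all genes, against 25.6%), and ran from 8 to 12 with each sample left out (15.8% to 22.3% of all genes). In Ad-hHIF1 against Ad-GFP organoids it was 0 under every alternative run. Genes under 300 bases held 68.5% to 75.1% of the TPM, and the summed TPM of the members was 77.0 in Ad-hHIF2 replicate 1 and 32.7 to 40.4 in the others. The cause of these shifts was not tested.

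Some log2 fold changes of the named members changed sign. With limma on log2(TPM + 1) these were Slc1a4 (0.08), Slc7a6 (0.14) and Slc1a5 (0.06) in Ad-hHIF2 and Slc7a5 (0.05), Slc6a8 (0.03), Slc38a10 (0.01) and Slc1a5 (0.01) in Ad-hHIF1 against Ad-GFP organoids, and Slc1a5 (0.05) and Slc38a2 (0.12) between the HIFs. With total counts only they were Slc7a6 (0.02) in Ad-hHIF2, Slc38a10 (0.01) and Slc38a7 (0.06) in Ad-hHIF1 organoids, and Slc38a2 (0.05) between the HIFs. With a sample left out, in Ad-hHIF1 against Ad-GFP organoids, Slc38a6 ran from -0.28 to 0.33, Slc43a3 from -0.10 to 0.19 and Slc38a7 from -0.11 to 0.07. Of all these, Slc1a4 and Slc1a5 in Ad-hHIF2 organoids were called in the main comparison.

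Samples with the same replicate number did not deviate together in every pair (mean correlations 0.0921, 0.0063 and -0.107 for Ad-hHIF2 and Ad-GFP, Ad-hHIF1 and Ad-GFP, and the HIFs). With the replicate block the counts were 13, 0 and 9, against 13, 0 and 10 without it (30.9%, 0% and 23.3% of all genes with it), and in Ad-hHIF2 against Ad-GFP organoids 12 calls were shared, with Slc38a7 lost (edgeR adjusted p = 0.0539) and Slc7a6 gained (0.0406). Between the HIFs, Slc43a3 was lost (0.0501). Members that never exceeded 15 counts were not tested, and for them depth limits what could be seen. The 3 samples per group limit the precision of each value.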
